A study of Mus musculus with 26 samples.

Results

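The comparison described here sets 2 genotypes of mouse embryonic stem cells (ESC) that carry different disruptions of Nap1l1 side by side after 4 days of differentiation with retinoic acid (RA). The cells are KH2, an established mouse ESC line made to accept inducible transgenes. The alphaKO group holds 3 libraries whose genotype is given as a knockout of the alpha form of NAP1L1, and the fullKO group holds 3 libraries given as a NAP1L1 knockout. These 6 libraries are all the day 4 libraries of both genotypes, out of 26 libraries in the series. The other libraries are 3 wild-type (WT) libraries on each of days 0, 2 and 4, 3 alphaKO libraries on each of days 0 and 2, and fullKO libraries on day 0 (2 libraries) and day 2 (3 libraries), and they serve here to place the day 4 difference. All groups share the KH2 background, and all day 2 and day 4 groups share the RA treatment. The labels do not say which protein form or exon the alpha knockout removes, nor how many clones stand behind each genotype. All libraries of a knockout genotype share 1 line prefix in their names, so a difference between genotypes and a difference between 2 cell lines cannot be told apart. Nothing in the labels ties the replicates to separate cultures, so each p-value reflects how far these libraries scatter, which may be a technical scatter alone.

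NAP1L1 is a histone chaperone: it carries histones H2A and H2B, keeps them from binding DNA at random and helps to assemble and take apart nucleosomes. Retinoic acid enters ESC, is bound by the CRABP proteins and activates nuclear retinoid receptors, which switch on Hox genes from the 3' end of each cluster onwards. Over the following days pluripotency factors such as NANOG and OCT4 are shut down, and cells take up neural, endoderm-like and other fates. Proneural factors of the bHLH family, such as neurogenins, drive neural progenitors out of the cell cycle and into neurons.

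Total counts were 15065143, 17262447 and 14614844 in the alphaKO libraries and 15779160, 17671365 and 16191309 in the fullKO libraries. Mitochondrial genes took 1.76% to 1.94% of counts in alphaKO and 1.76% to 1.92% in fullKO. In a principal component analysis of the 6 libraries, the first component (51.1% of the variance) separated the genotypes, and the second (14%) spread the alphaKO libraries, with replicate 1 at 37.8, replicate 2 at -5.8 and replicate 3 at -26.7. The 3 fullKO libraries lay between -4.69 and 2.05 on that component. Named genes whose call changed without alphaKO replicate 1 are given without it as well, as are called genes whose value moved by over 1.5 times. Small differences of genes not called moved too, such as that of Tubb3 (-0.01 without this library), and are not all given. Pou5f1, which encodes OCT4, had fallen from 594 CPM (counts scaled to a common library size) at day 0 to 32.3 at day 4 in alphaKO, and from 655 to 42.3 in fullKO, against 615 and 3.7 in WT. The RA target Rarb had gone from 0.149 to 43.4 CPM in alphaKO and from 0.195 to 36.1 in fullKO, so both genotypes had left the day 0 state.

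Nap1l1 itself (ENSMUSG00000058799.16, chr10:111473223-111498150 in GRCm38) was read at 339, 348 and 340 CPM in alphaKO, at 238, 222 and 221 in fullKO and at a mean of 393 in WT. The alphaKO and fullKO values do not overlap, and the log2 difference was 0.59 ± 0.04 (alphaKO over fullKO, ± SE, adjusted p = 1.28e-16, edgeR's quasi-likelihood test with Benjamini-Hochberg adjustment, as for every adjusted p below). RNA of the gene was thus counted in both genotypes. A count per gene does not show which form or exons the reads come from. Of 10 genes of the NAP1 family tested, 3 were higher in alphaKO, 2 were lower and 5 were not called. The share called was 50%, against 32.7% over all genes. Set, which encodes a related H2A-H2B and H3-H4 chaperone and phosphatase inhibitor, was higher by 0.27 ± 0.03, and Nap1l4, the closest ubiquitous relative, by 0.21 ± 0.04. Tspyl1 was lower (-0.31 ± 0.05), and Nap1l2, a relative expressed in neurons, was lower by a margin that lost the call without fullKO replicate 2 or 3 or alphaKO replicate 1 or 2 (-0.39 ± 0.14, adjusted p = 0.0306).

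Across the 18412 genes tested, 6026 (32.7%) differed between alphaKO and fullKO at day 4 at an adjusted p under 0.05. Of these, 3199 were higher in alphaKO (17.4% of genes tested) and 2827 were lower (15.4%). The counts given for each list of genes are to be set beside these shares. A difference of at least 2-fold was seen for 1133 genes (6.15%), 480 higher and 653 lower, so that most of the called differences were under 2-fold. The median log2 difference over all genes was 0.015. A test against a 1.2-fold change, in place of no change, called 2349 genes. For scale, alphaKO differed from WT on the same day at 9707 genes (52.7%) and fullKO differed from WT at 9128 (49.6%), and both of those comparisons share their WT libraries.

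**Figure D1:**
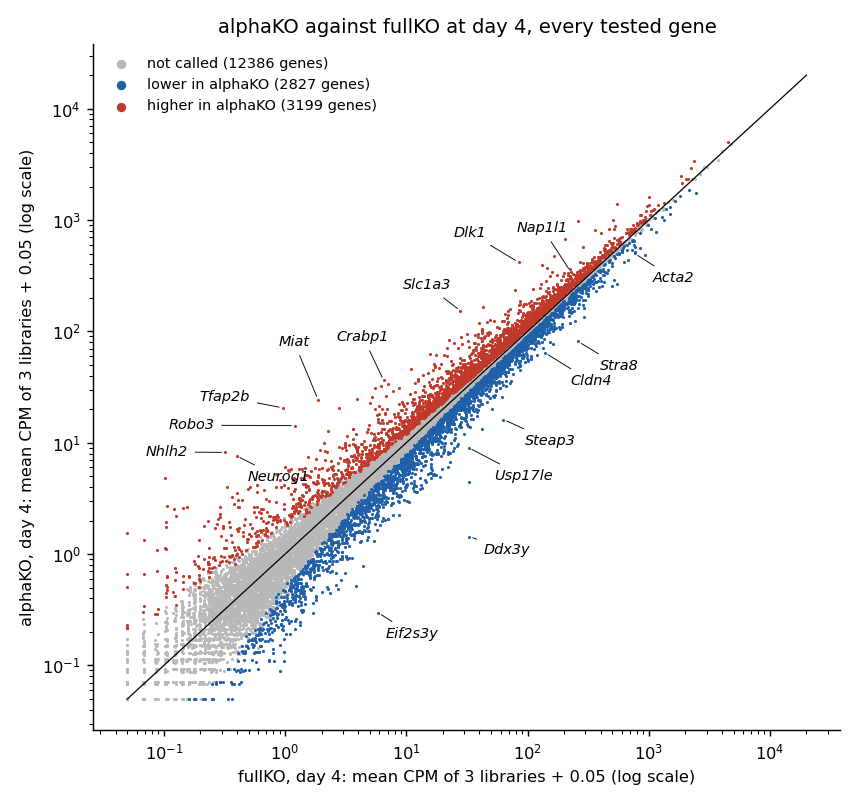
Mean CPM in the 3 fullKO libraries (x axis) and the 3 alphaKO libraries (y axis) at day 4 for each of 18412 genes, with 0.05 CPM added and both axes on a log scale. Red points are the 3199 genes called higher in alphaKO and blue points the 2827 called lower. The red points that lie farthest from the line of equal levels are neuronal transcription factors and guidance genes, and the blue ones include Y-linked genes.

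The place of WT differed between the directions for the large differences. Among the 480 genes at least 2-fold higher in alphaKO, the WT mean lay nearer fullKO for 347 and nearer alphaKO for 133, and it lay below both knockout genotypes for 173. Among the 653 genes at least 2-fold lower in alphaKO, the WT mean lay nearer alphaKO for 419 and nearer fullKO for 234, and it lay below both for 300. Over all called genes, without the 2-fold limit, the WT mean lay nearer fullKO in both directions, for 2079 of 3199 genes higher in alphaKO and for 1603 of 2827 lower in alphaKO. Nearer does not mean at the WT level, since WT often lay outside the range of both knockout genotypes. These counts are descriptions of group means and carry no test.

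Neuronal genes gave the largest rises. The proneural and neuron list had 21 tested genes, of which 12 were higher in alphaKO, 2 were lower and 7 were not called, with a median log2 difference of 0.61. Nhlh2 (ENSMUSG00000048540.8, chr3:102010076-102015492), a bHLH factor of newborn neurons, was at 5.23, 8.71 and 10.5 CPM in alphaKO and at 0.058, 0.413 and 0.338 in fullKO. The ratio of means was 30.2, and the log2 difference was 4.85 ± 0.4 (adjusted p = 1.21e-13). In WT its level was 0.58, 0.357 and 0.402 CPM, so alphaKO stood above both other genotypes. Neurog1 (ENSMUSG00000048904.5, chr13:56250478-56252163), a proneural factor that commits progenitors to sensory and other neurons, read 4.79, 9.15 and 8.75 CPM in alphaKO, against 0.29, 0.362 and 0.395 in fullKO. It differed by 4.41 ± 0.38 (adjusted p = 5.38e-13), and its WT mean was 0.112. Both factors were lowest in alphaKO replicate 1 among the alphaKO libraries, and without it the differences were 5.09 and 4.65.

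Other proneural factors were read at very low levels outside alphaKO, so counts are given in place of folds. Neurod4, which acts downstream of the neurogenins, had 133 counts over the 3 alphaKO libraries and 3 over the 3 fullKO libraries (adjusted p = 1.08e-06, but 0.0665 with DESeq2). Nhlh1, the close relative of Nhlh2, had 127 and 5 counts (adjusted p = 5.73e-07). Neurog2, a second neurogenin, had 54 and 3 (adjusted p = 0.000106). Dbx1, which marks progenitors in the middle of the neural tube, had 52 and 2 (adjusted p = 2.58e-05). In WT at day 4 these genes had 2, 0, 3 and 1 counts. Elavl3, an RNA-binding protein of early neurons, was higher too (2.27 ± 0.19) and is named after its value was seen. The neuronal tubulin Tubb3 was not called, at 44 CPM in alphaKO and 48.9 in fullKO, nor was the Notch ligand gene Dll1, at 5.09 and 4.3 CPM. Without alphaKO replicate 1 Dll1 was called, at 0.43 (adjusted p = 0.0492), and without alphaKO replicate 3 Tubb3 was called lower, at -0.3. The summed level of the list was 177, 220 and 226 CPM in alphaKO, 154, 153 and 154 in fullKO and 153 to 155 in WT. In bulk RNA, more cells of a type and more RNA per cell cannot be told apart.

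Several of the other large rises are genes of neurons and neural tissue. Miat (chr5:112213228-112229395), a long noncoding RNA of developing neurons, was at 16.7, 24.3 and 31.9 CPM in alphaKO and at 2.2, 1.91 and 1.35 in fullKO, and differed by 3.73 ± 0.21. Robo3, a guidance receptor of commissural axons, was at 10.5, 13.4 and 18.7 against 1.28, 0.775 and 1.41 CPM (3.62 ± 0.28). Slc1a3 (chr15:8634124-8710764), the glutamate transporter GLAST of radial glia, was abundant, and read 142, 158 and 160 CPM in alphaKO against 27.9, 31.8 and 23.8 in fullKO (2.46 ± 0.07, adjusted p = 9.98e-29). WT lay with fullKO for all 3, at means of 2.2, 1.31 and 28.4 CPM. Tfap2b (chr1:19208914-19238576), a transcription factor of neural crest and interneurons, was at 13.9, 22.3 and 25.3 CPM in alphaKO, at 0.927, 0.723 and 1.07 in fullKO and at a mean of 3.07 in WT, and differed by 4.5 ± 0.29. Chrna3, a nicotinic receptor subunit (2.68 ± 0.3), and Slitrk2, a synaptic adhesion protein (2.51 ± 0.13), were also higher. Ccbe1, needed for lymphatic growth (2.63 ± 0.32), and Upk3b, a uroplakin of mesothelium (2.5 ± 0.24), complete the 12 largest rises together with Epha3 and Crabp1, which are described below.

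**Figure D2:**
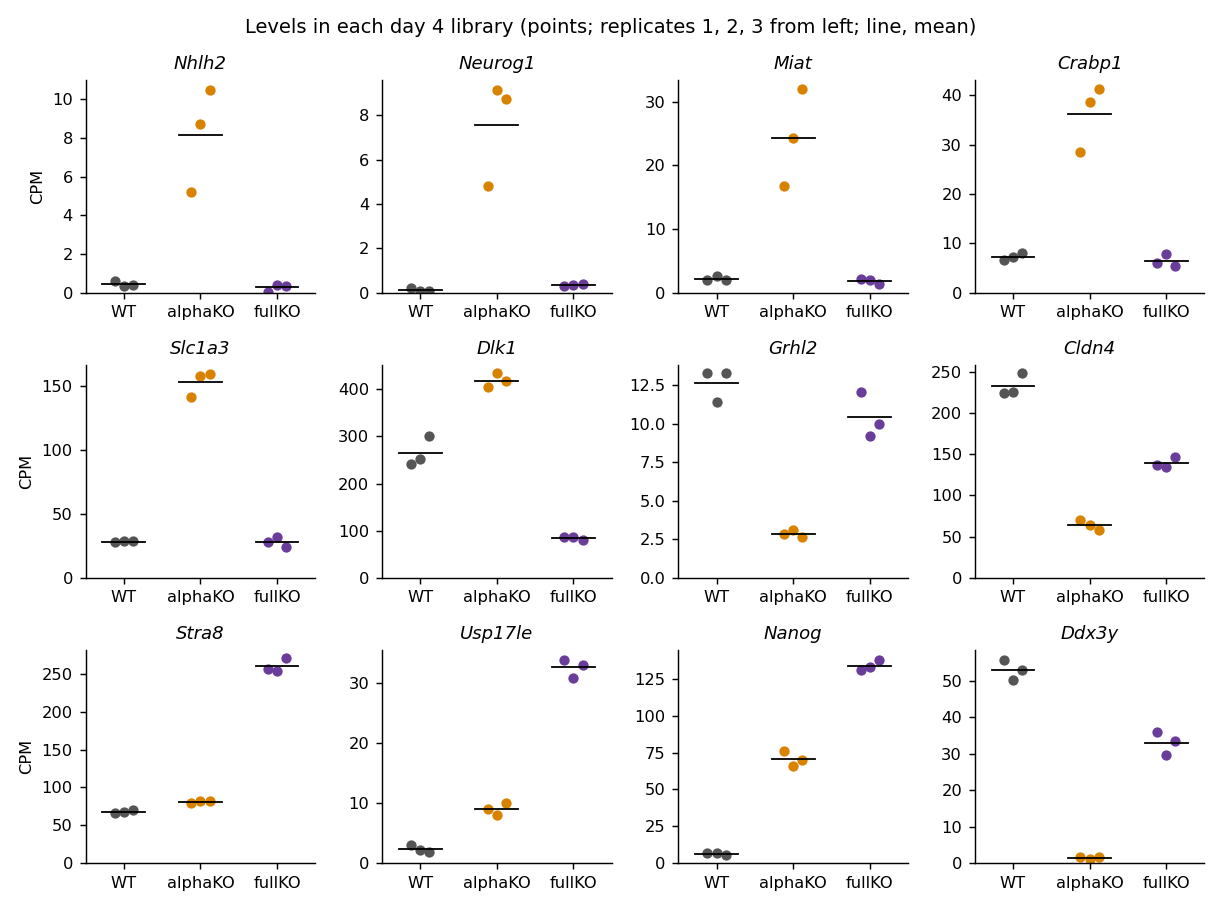
CPM of 12 genes in each day 4 library (y axes, linear and starting at 0), by genotype (x axis), with replicates 1, 2 and 3 from left to right and a line at the mean. Nhlh2, Neurog1, Miat, Crabp1 and Slc1a3 are high in alphaKO alone, and Stra8, Usp17le and Nanog are highest in fullKO and Grhl2, Cldn4 and Ddx3y are lowest in alphaKO.

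Genes that guide axons and hold neural cells together moved in the same direction. Of 31 tested genes of adhesion and axon guidance, 21 were higher in alphaKO, 3 were lower and 7 were not called (median 0.47). The ephrin receptor gene Epha3 was at 21.6, 24.8 and 27.8 CPM in alphaKO and at 3.94, 3.87 and 3.89 in fullKO (2.66 ± 0.17), and its relative Epha5 at means of 2.62 and 0.361 CPM (2.82 ± 0.45). Cntn2, an adhesion molecule of outgrowing axons, was at 24.1, 29.2 and 34.9 against 7.13, 8.52 and 7.56 CPM (1.92 ± 0.14). Sema3a, a repellent guidance cue, was at 74.2, 89.2 and 87.2 against 22.1, 26 and 18.9 CPM (1.9 ± 0.11). For each of these 4 genes no alphaKO library overlapped a fullKO library. The 3 lower members were L1cam, Robo2 and Sema6a, at -0.68, -0.56 and -0.37. Neither Nrp1 (110 CPM in alphaKO, 117 in fullKO) nor Epha4 (71.2 CPM in alphaKO, 76.5 in fullKO) was called, although Epha4 was called lower without alphaKO replicate 3, at -0.21 (adjusted p = 0.0192).

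Neural progenitor genes were divided. Of 20 tested, 4 were higher, 5 were lower and 11 were not called (45% called in all, median 0.06). Sox1, a neuroectoderm factor, was at 20.5, 28.4 and 27.5 CPM in alphaKO and at 6.03, 5.16 and 4.34 in fullKO (2.3 ± 0.12). Pax6, a patterning factor of the dorsal neural tube and eye, was at 30.1, 34.9 and 37 against 11.5, 13.3 and 10.4 CPM (1.53 ± 0.11). Sox3, another early neural factor, was lower (-0.82 ± 0.17), and the progenitor filament gene Nes was not called, at 243 and 231 CPM. In the epiblast list, Zic2 and its chromosome 14 neighbour Zic5, zinc-finger factors of the neural plate, were higher by 1.69 ± 0.11 and 1.23 ± 0.13. In the Notch pathway, which holds progenitors back from becoming neurons, 7 of 15 genes were higher and 1 was lower (median 0.53). The receptor gene Notch1 was higher by 0.73 ± 0.07, and the ligand gene Jag2 was the lower one (-0.88 ± 0.09). The Notch target Hes1 stood at 58 and 57.9 CPM and was not called. Of 13 neural crest genes, 3 were higher, 2 were lower and 8 were not called, and the share called (38.5%) is near the 32.7% over all genes.

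Genes of retinoid metabolism and binding were higher in alphaKO for 6 of 15 tested, and none was called lower. The share called (40%) is near the 32.7% over all genes, and the list median was 0.07. Crabp1 (chr9:54764748-54773110), a retinoic acid-binding protein of the cytosol, was at 28.5, 38.7 and 41.4 CPM in alphaKO and at 5.97, 7.9 and 5.47 in fullKO (2.48 ± 0.15, adjusted p = 2.81e-18), with a WT mean of 7.24. Its relative Crabp2, which delivers the ligand to nuclear receptors, was at 75.9, 80.2 and 80.1 against 35.1, 36.2 and 37.7 CPM (1.11 ± 0.06), and here WT, at a mean of 75.7, lay with alphaKO. The RA-making enzyme gene Aldh1a2 was at 25.6, 32.4 and 35.2 against 9.16, 10.5 and 6.32 CPM (1.84 ± 0.15). The retinol transporter gene Stra6 was higher by 0.91 ± 0.06. By contrast the genes of the enzymes that destroy RA did not pass the test: Cyp26a1 stood at 225 CPM in alphaKO and 228 in fullKO, and Cyp26b1 at 245 and 231. Among 14 retinoid and orphan receptor genes, 5 were higher and 3 were lower. Nr2f1, the orphan receptor COUP-TFI and an RA-induced gene, was at 71.6, 83.7 and 82.4 against 26.1, 25.6 and 21.8 CPM (1.69 ± 0.1), and its relative Nr2f2 differed by 0.57 ± 0.07. Nr6a1, an orphan receptor of early embryos, was lower (-0.97 ± 0.05). The receptor gene Rara was not called, at 93.2 and 91.3 CPM.

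Hox genes, which give cells their place along the body axis, were mostly higher in alphaKO in the A, B and C clusters and not in the D cluster. In the A cluster 7 of 11 tested genes were called higher. Higher and lower calls numbered 7 and 2 of 10 in B, 6 and 1 of 9 in C, and 2 and 2 of 8 in D. The cluster medians were 0.38, 0.74, 0.86 and -0.39. Members of paralog group 6 led each of the first 3 clusters. Hoxc6 was at 32.4, 30.5 and 37.4 CPM in alphaKO and at 6.96, 7.28 and 6.94 in fullKO (2.24 ± 0.12). Hoxa6 was at 8.13, 8.33 and 9.13 against 3.07, 1.6 and 1.01 CPM (2.17 ± 0.29), and Hoxb6 at 47.8, 54.5 and 51.6 against 18.5, 15.8 and 16.6 (1.6 ± 0.1). Hoxb1, at the 3' end of its cluster, where RA acts first, went the other way. It was at 27.5, 26.1 and 27 CPM in alphaKO, at 55.3, 52.6 and 54.6 in fullKO and at a mean of 27.2 in WT (-1.01 ± 0.07). The called members of paralog group 13, at the 5' end, were lower as well: Hoxd13 by -1.35 ± 0.2, Hoxc13 by -0.72 ± 0.19 and Hoxb13 by -0.5 ± 0.13. The clusters hold antisense RNAs, and no source used here names the strand setting of the counting. Reads of a Hox gene and its antisense partner may not be separated.

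**Figure D3:**
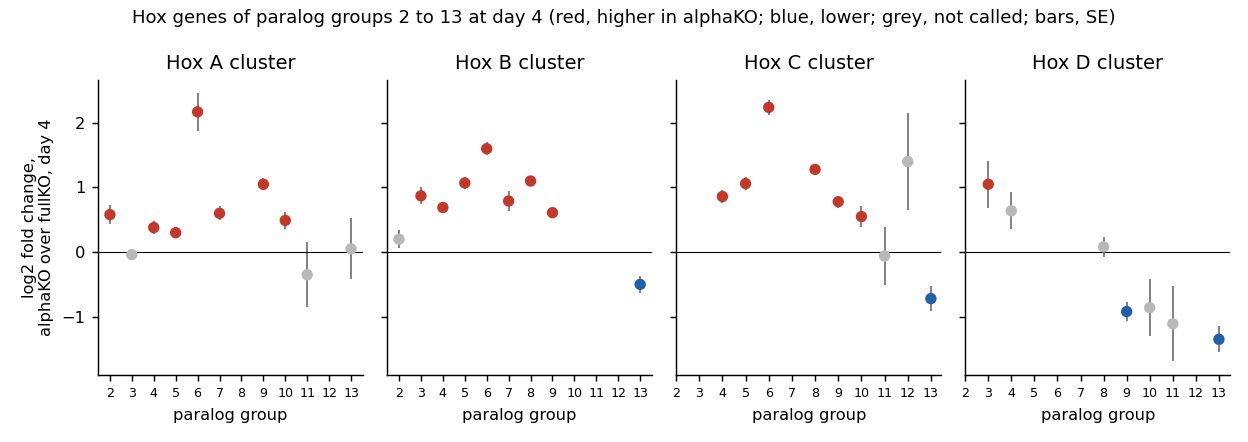
Log2 difference, alphaKO over fullKO at day 4 (y axis), of the tested Hox genes of paralog groups 2 to 13 by paralog group (x axis) and cluster (panels). Bars are SE from the fit. Red points are higher in alphaKO, blue points are lower and grey points are not called. Group 13 lies below 0 where called, and groups 4 to 9 lie above 0 in the A, B and C clusters where called.

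Nearly all genes of cholesterol synthesis were a little higher in alphaKO. Of 21 tested, 20 were called higher, and the remaining 1, Pmvk, was not called (0.19 ± 0.07, adjusted p = 0.0512, and called higher with DESeq2 at 0.0393 or without fullKO replicate 3 at 0.0452). The median log2 difference was 0.41 and the range 0.14 to 0.78. The summed level of the list was 3783, 3896 and 3880 CPM in alphaKO, 2872, 2964 and 2953 in fullKO and 2710 to 2826 in WT, so fullKO was the genotype nearer WT. Lss, which closes the sterol ring, was at 171, 183 and 183 against 111, 113 and 117 CPM (0.66 ± 0.04, adjusted p = 2.7e-16). The sterol dehydrogenase gene Nsdhl was higher by 0.69 ± 0.07, Mvd of the mevalonate part of the pathway by 0.61 ± 0.06, and Hsd17b7 by 0.78 ± 0.07. Hsd17b7 lies on chromosome 1, parts of which are described below. Outside chromosomes 1, 14 and Y, 18 of 19 genes of the list were called higher.

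These genes are commonly driven by SREBP-2, which binds a sterol element together with factors at CCAAT boxes, so the 250 bases before the start of transcription were searched on both strands. RefSeq promoters (GRCm38.p6) were at hand for 14 of the 21 genes. The sterol element core TCACNCCAC was found in 1 of 14, Hmgcs1, against 1.22% of 27025 genes with a promoter. The CCAAT box (CCAAT) was found in 14 of 14, against 37.5% of all genes. It was also found in 11 of 17 promoters (64.7%) of the proneural and neuron list, so a raised share was not particular to the cholesterol genes. The E-box CAGCTG, which proneural factors bind, was found in 3 of the 14 and in 6 of 17 promoters of the proneural and neuron list, against 14.7% of all genes. The motifs do not overlap in letters, and a match is a description of the sequence, not a binding site. The upstream stretches of Hmgcs1, the only holder of the sterol core, and of the 2 genes of largest difference outside chromosome 1 are shown because they let the arrangement be seen. They are written 5' to 3' on the gene's strand, which is the plus strand for all 3, and the capitals mark the sterol core and CCAAT, or its reverse complement ATTGG, for chr13:119690101-119690350, chrX:72918271-72918520 and chr10:76531355-76531604.
Hmgcs1: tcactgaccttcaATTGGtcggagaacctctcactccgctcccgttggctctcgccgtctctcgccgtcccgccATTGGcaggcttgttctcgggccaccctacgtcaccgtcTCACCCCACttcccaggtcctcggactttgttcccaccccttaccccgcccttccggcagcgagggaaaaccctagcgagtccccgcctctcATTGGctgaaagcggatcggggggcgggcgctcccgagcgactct
Nsdhl: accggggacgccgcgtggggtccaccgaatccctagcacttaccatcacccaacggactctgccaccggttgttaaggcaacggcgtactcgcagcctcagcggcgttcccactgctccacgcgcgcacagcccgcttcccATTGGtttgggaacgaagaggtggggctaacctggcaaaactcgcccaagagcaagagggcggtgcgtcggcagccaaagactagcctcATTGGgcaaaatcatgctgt
Lss: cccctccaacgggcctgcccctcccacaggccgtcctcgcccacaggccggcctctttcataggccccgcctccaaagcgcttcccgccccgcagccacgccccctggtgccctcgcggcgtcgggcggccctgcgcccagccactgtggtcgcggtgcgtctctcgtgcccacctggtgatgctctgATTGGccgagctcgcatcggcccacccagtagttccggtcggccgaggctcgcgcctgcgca

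In Hmgcs1 the sterol core lies among CCAAT boxes, and in Nsdhl and Lss the capitals are CCAAT boxes on the opposite strand. Hmgcs1, which makes the first committed intermediate of the pathway, was itself called higher, by 0.39 ± 0.04. Motifs were chosen with the expression results known.

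Imprinted genes, which are expressed from 1 parental allele, moved in both directions, with 14 of 30 higher in alphaKO, 9 lower and 7 not called. Dlk1 (chr12:109452823-109463336), a paternally expressed growth regulator, was at 404, 434 and 417 CPM in alphaKO and at 85.8, 87.3 and 79.5 in fullKO (2.31 ± 0.07, adjusted p = 3.13e-28), with WT between them at 242, 253 and 300. Igf2, a fetal growth factor, was at 234, 231 and 236 against 88.9, 72.8 and 75.4 CPM (1.57 ± 0.09), and Peg12 was higher by 1.39 ± 0.14. Cdkn1c, an inhibitor of cyclin-dependent kinases, was at 150, 168 and 163 against 75.2, 69.7 and 69.7 CPM (1.17 ± 0.06). Magel2 was lower (-1.34 ± 0.2), and neither Peg10 (3495 CPM in alphaKO, 3743 in fullKO) nor Grb10 (1006 CPM in alphaKO, 1009 in fullKO) was called, although Peg10 was called lower without alphaKO replicate 1, at -0.13 (adjusted p = 0.032).

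Genes of the cell cycle that were called were mostly higher in alphaKO. Among cyclins of G1, their kinases and inhibitors, 15 of 24 were higher and 4 were lower (median 0.31), led after Cdkn1c by Ccnd1 (1.01 ± 0.07) and Ccnd2 (0.81 ± 0.07), whereas the inhibitor gene Cdkn2a was lower (-0.72 ± 0.08). Of 25 replication genes 14 were higher and 2 were lower, with Rrm2, a subunit of ribonucleotide reductase, at 191, 204 and 202 against 125, 125 and 122 CPM (0.68 ± 0.04). Of 22 mitosis genes 11 were higher and 1 was lower, and the proliferation marker Mki67 differed by 0.34 ± 0.05. Both growth-promoting and growth-inhibiting members of these lists are thus among the called genes. Of 78 cytosolic ribosomal protein genes, 12 were higher, 1 was lower and 65 were not called. The share called was 16.7%, against 32.7% over all genes.

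Several chromatin genes differed as well. Histone variant genes were higher for 9 of 13 tested and lower for none (69.2% called, against 32.7% over all genes, median 0.25). H2afz, which encodes the variant H2A.Z, was at 196, 216 and 204 CPM in alphaKO and at 124, 138 and 131 in fullKO (0.65 ± 0.04). Anp32e, a chaperone that removes H2A.Z, was higher by 0.6 ± 0.05, and in all 11 of 24 histone chaperone genes were higher and 1 was lower (7 and 1 of 19 outside chromosomes 1, 14 and Y). Ipo9, an importin of H2A and H2B, gave the largest difference of these (0.99 ± 0.04), but it lies in the stretch of chromosome 1 described below. Dnmt1, the maintenance DNA methyltransferase, was at 314, 326 and 330 against 176, 178 and 169 CPM (0.9 ± 0.04), and Dnmt3l, a cofactor of the de novo methyltransferases, was lower (-1.02 ± 0.08). In the Polycomb list, 6 of 21 were higher and 5 were lower (52.4% called). Cbx7, a subunit typical of ESC, was at 145, 126 and 130 against 280, 296 and 308 CPM (-1.14 ± 0.05). Rnf2, the ubiquitin ligase of the complex, was higher by 1.51 ± 0.05 but lies on chromosome 1. BAF remodeler subunits were higher for 11 of 18 and lower for none, led by the neuron-type subunit gene Dpf1 (1.1 ± 0.13) and the muscle and brain subunit gene Smarcd3 (1.07 ± 0.13).

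Epithelial genes were lower in alphaKO. Of 20 tested, 18 were called lower and none higher (median -0.83), and the other two, Tjp3 and Cdh3, stood at -0.38 ± 0.18 and -0.13 ± 0.06. Grhl2 (chr15:37233036-37363569), a master regulator of epithelial genes, was at 2.84, 3.12 and 2.64 CPM in alphaKO, at 12.1, 9.19 and 9.98 in fullKO and at a mean of 12.6 in WT (-1.85 ± 0.15, adjusted p = 5.14e-14). The tight-junction gene Cldn4 was at 70.5, 63.7 and 58.4 against 137, 134 and 147 CPM (-1.11 ± 0.07), below a WT mean of 233. Cldn3 (-1.41 ± 0.24) and Grhl3 (-1.07 ± 0.12) were lower too. Summed over the list, levels ran from 1326 to 1676 CPM in alphaKO, from 2478 to 2853 in fullKO and from 4363 to 4730 in WT, so the genotypes did not overlap and WT was highest. For mesenchymal and motility genes the calls were divided, with 5 of 16 higher and 4 lower (56.2% called, against 32.7% over all genes).

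Contractile genes of smooth muscle were lower in alphaKO for 8 of 12 and higher for none (median -0.48), but alphaKO replicate 1 stood apart. Acta2, smooth muscle actin, was at 689, 413 and 402 CPM in alphaKO, at 733, 642 and 920 in fullKO and at 2512 to 2846 in WT, so that alphaKO replicate 1 overlapped the fullKO range (-0.61 ± 0.13, adjusted p = 0.000201). Without that library the difference was -0.91, and 10 of 12 genes were lower. Cnn1, calponin, was at 31.6, 20.1 and 18.6 against 38.1, 34.8 and 47.5 CPM (-0.78 ± 0.12, and -1.05 without that library), and Myh11 went from -0.82 ± 0.18 to -1.25. The same library held the lowest levels of Nhlh2, Neurog1 and Miat among the alphaKO libraries. Immediate-early genes, which respond to serum and handling, were lower for 9 of 16 and higher for none (median -0.42), for example Dusp1 (-0.53 ± 0.08), and the part of handling in other results was not tested. Fos was called at -0.53 ± 0.2 (adjusted p = 0.0352), and the call was lost with DESeq2 (0.155), without fullKO replicate 1 (0.158) or without alphaKO replicate 2 (0.243) or 3 (0.202). Without alphaKO replicate 1 the difference in Fos was larger, at -0.92 (adjusted p = 0.000376).

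Fibroblast genes, listed because feeder cells could be present, were higher for 8 of 15 and lower for none (median 0.48). Their summed level was 2208 to 2325 CPM in alphaKO, 1644 to 1694 in fullKO and 3665 to 3699 in WT, and none of the 15 was at 0 in all 6 libraries. Col1a1, fibrillar collagen, was at 175, 145 and 185 against 98.9, 80.8 and 93.7 CPM (0.88 ± 0.12), below a WT mean of 562. Of 20 collagen genes, 10 were higher and 6 were lower (80% called). The part of feeder or other stromal cells in these values was not tested. Endothelial and blood genes gave 3 lower calls of 11, a share of 27.3% called that is below the 32.7% over all genes (Tie1, Tek and Pecam1, at -1.4 ± 0.25, -0.95 ± 0.13 and -0.84 ± 0.1), cardiac genes 3 higher and 4 lower of 10, and mesoderm genes 4 higher and 5 lower of 15.

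Pluripotency genes were mostly lower in alphaKO. Of 14 general pluripotency genes 12 were lower (median -0.49). Of 17 naive pluripotency genes 9 were lower and 2, Klf4 and Tbx3, were higher (0.28 ± 0.07 and 0.30 ± 0.05). Outside chromosomes 1, 14 and Y, 5 of the naive genes were lower. Nanog was at 75.7, 66 and 69.9 CPM in alphaKO, at 131, 133 and 138 in fullKO and at 6.53, 6.73 and 5.34 in WT (-0.93 ± 0.05, adjusted p = 1.18e-18). It was thus above WT in both knockout genotypes and highest in fullKO. Klf2 was at 29.9, 26.9 and 35.6 against 60.4, 59.6 and 58.5 CPM (-0.96 ± 0.08), with a WT mean of 8.4. Lin28a, an RNA-binding protein that blocks let-7, was at 107, 104 and 101 against 187, 188 and 185 CPM (-0.84 ± 0.04), and here WT, at a mean of 96.3, lay near alphaKO. Neither Tet2 (102 CPM in alphaKO, 101 in fullKO) nor Klf5 (50.9 CPM in alphaKO, 55 in fullKO) was called.

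Genes of the 2-cell-like state, a rare state of ESC that resembles the cleaving embryo, were lower in alphaKO for 16 of 18 tested and higher for none (median -1.7). Zscan4e, a marker of this state, was at 5.48, 4.05 and 5.21 CPM in alphaKO, at 20.2, 16.7 and 19.6 in fullKO and at a mean of 1.9 in WT (-1.94 ± 0.15). Usp17le was at 8.95, 8 and 9.97 against 33.9, 30.9 and 33 CPM (-1.87 ± 0.13), and Usp17la (-1.9 ± 0.14) and Usp17lb (-1.79 ± 0.16) lay close to it. WT was below both knockout genotypes for these 4 genes. Summed over the list, levels were 73.8, 74.2 and 75.3 CPM in alphaKO, 252, 242 and 244 in fullKO and 15.7 to 21.3 in WT. Members of the Zscan4 and Usp17l families are near-identical copies, so the share of reads given to each copy is uncertain. Tdpoz3 and Tdpoz4 were not called, at -1.2 ± 0.7 and -1.22 ± 0.63, but without alphaKO replicate 1 they were, at -2.9 (adjusted p = 0.0142) and -2.13 (adjusted p = 0.0342).

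Germline genes were lower for 12 of 20 and higher for none (median -0.5). Stra8 (chr6:34920163-34939344), an RA target that licenses meiosis in germ cells, was at 79.6, 81.5 and 82.3 CPM in alphaKO, at 257, 254 and 272 in fullKO and at 66.8, 67.5 and 69.5 in WT (-1.69 ± 0.05, adjusted p = 1.55e-29). Dazl, a germ-cell RNA-binding protein, was at 1.95, 1.97 and 2.12 against 7.07, 6.66 and 7.44 CPM (-1.8 ± 0.18), and Prdm1, a factor of germ-cell specification, at 9.58, 9.15 and 9.13 against 27.1, 26 and 25.3 (-1.49 ± 0.11). In each of these 3 genes fullKO was the highest genotype. Rec8, a meiotic cohesin, was not called, at 209 and 197 CPM. Among the other large falls were Mal2, a membrane-trafficking protein of epithelia (-2.09 ± 0.26), and Stmn4, a microtubule regulator of neurons, which was at 3.15, 1.32 and 2.12 CPM in alphaKO, 7.71, 6.56 and 8.91 in fullKO and a mean of 29.7 in WT (-1.83 ± 0.22). Stmn4 and Mapt, which encodes tau (-0.51 ± 0.13), are neuronal genes with a difference of the opposite sign to most. Mapt is a member of the proneural and neuron list, and Stmn4 is not.

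Targets of p53 were lower for 14 of 20, and 1, Phlda3 on chromosome 1, was higher (median -0.34). Trp53inp1, a stress-induced p53 cofactor, was at 458, 452 and 408 against 690, 660 and 674 CPM (-0.62 ± 0.05), and the stress hormone gene Gdf15, at 0.378 CPM or less in alphaKO, differed by -2.31 ± 0.45. WT was higher than both genotypes for Trp53inp1, at a mean of 814 CPM. Interferon and antigen-presentation genes were lower for 7 of 19 and higher for 1, a share of 42.1% called against 32.7% over all genes. The MHC gene H2-K1 was at 19.7, 18.6 and 18.8 against 30.7, 38 and 39.1 CPM (-0.92 ± 0.08). In the endoderm-like list 10 of 19 were higher and 3 were lower. Lama1, a laminin of basement membranes, was at 829, 839 and 978 against 484, 609 and 482 CPM (0.75 ± 0.07), and the fetal serum protein gene Afp was lower, with 9 counts in alphaKO and 69 in fullKO.

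Signalling genes were divided. Among Wnt ligands and feedback genes 9 of 27 were higher and 6 were lower (55.6% called, against 32.7% over all genes). Wnt4 was at 45.6, 44.7 and 46 CPM in alphaKO and at 12.8, 11.2 and 8.97 in fullKO (2.05 ± 0.12), and the secreted antagonist gene Sfrp1 was higher by 1.13 ± 0.06. In the hedgehog pathway 6 of 13 were higher and 2 were lower (61.5% called). Hhip, which binds and blocks hedgehog ligands, was at 103, 135 and 129 against 46.1, 49.1 and 43.2 CPM (1.41 ± 0.07), and the coreceptor genes Gas1 and Boc were higher by 0.98 ± 0.07 and 0.91 ± 0.1. In the Nodal, BMP and TGF-beta list 4 of 20 were higher and 6 were lower (50% called, median -0.07). Nodal, a ligand of the epiblast, was lower (-0.92 ± 0.07), and its inhibitor Lefty2 as well (-0.93 ± 0.11). The FGF and ERK feedback list was split, with 7 of 19 higher and 6 lower (68.4% called, median 0.13). Its largest rise was Fgf15, a growth factor of the neural tube, at 3.09, 4.38 and 4.89 against 0.174, 0.878 and 0.564 CPM (2.89 ± 0.29). Fgf17 went the other way, with 16 counts in alphaKO and 63 in fullKO.

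**Figure D4:**
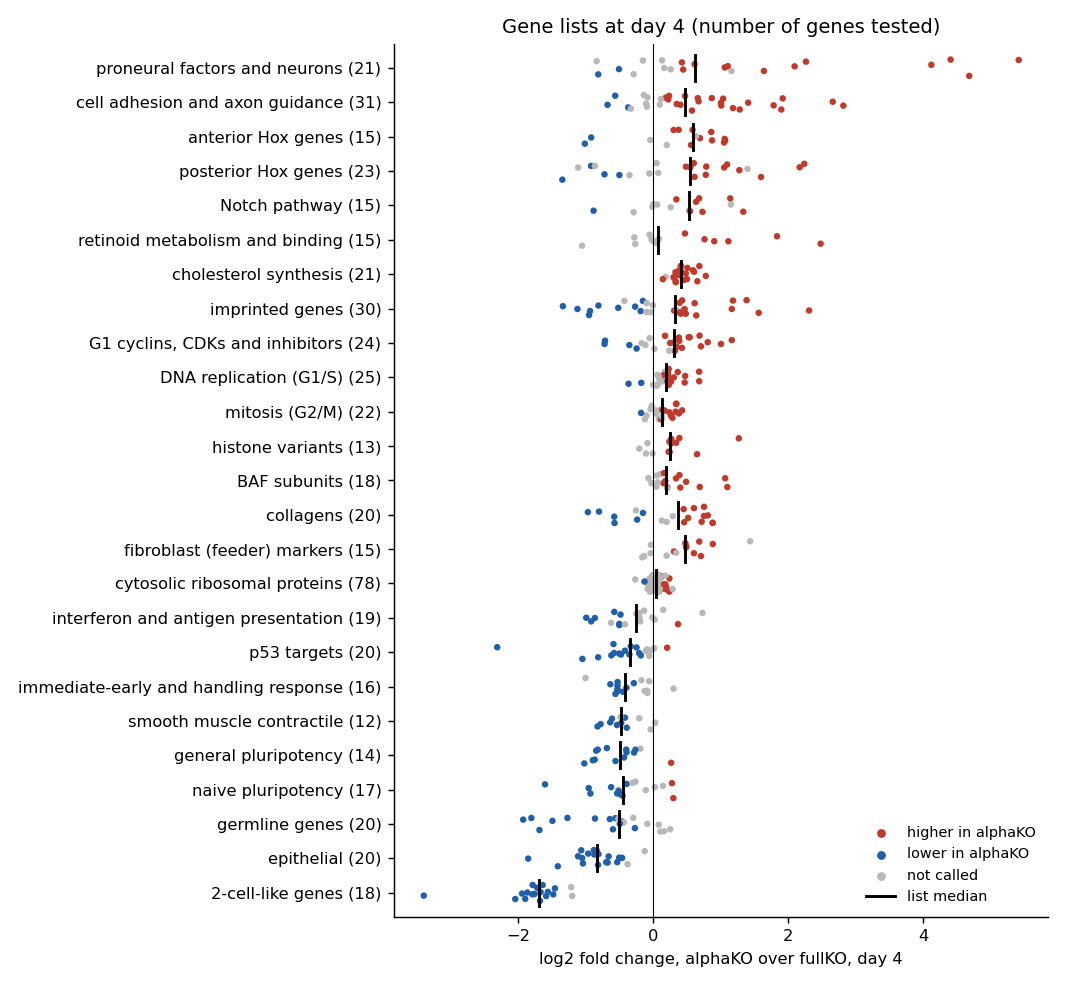
Log2 difference, alphaKO over fullKO at day 4 (x axis), of every tested gene in 25 lists (rows, number tested in brackets). Each point is a gene, red if called higher in alphaKO, blue if called lower and grey if not called, and the black bar is the list median. Medians run from 0.61 for the proneural and neuron list to -1.7 for the 2-cell-like list.

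The same genotypes differed at day 0 and day 2 already, so the change of the difference was tested. The alphaKO to fullKO difference at day 4 was not the same as at day 0 for 5138 genes (27.9%) and not the same as at day 2 for 3042 (16.5%). Both tests use the same day 4 libraries, so they are not independent of each other or of the day 4 comparison. In the cholesterol list the median difference was -0.16 at day 0, 0.22 at day 2 and 0.41 at day 4, and 20 of 21 genes changed between day 0 and day 4. Lss was higher in fullKO at day 0, and its difference moved by 1.01 on the log2 scale from day 0 to day 4 (adjusted p = 5.44e-16). The epithelial median was 0.06 at day 0, -0.16 at day 2 and -0.83 at day 4, and 15 of 20 genes changed from day 0. In the 2-cell-like list the median stood at -2.55, -2.35 and -1.7, 1 of 18 genes changed from day 0, which has 2 fullKO libraries, and 6 changed from day 2. Anterior Hox genes had medians of 1.52, 0.71 and 0.58. The day 0 value draws on genes with few counts, such as Hoxb5 (22 in alphaKO, 0 in fullKO) and Hoxc5 (23 and 1), and is uncertain. Fibroblast genes had medians of 1.95, 1.4 and 0.48.

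Several of the neuronal genes with large differences, and the growth factor gene Fgf15, gained them between day 2 and day 4. Neurog1 was at 0.44 CPM in alphaKO and 1.22 in fullKO at day 2 and had reversed to 7.56 and 0.349 by day 4 (change of the difference 5.86 on the log2 scale, adjusted p = 6.27e-11). Nhlh2 went from 0.436 and 0.746 CPM at day 2 to 8.14 and 0.27 (change 5.61), Robo3 from 0.808 and 1.38 to 14.2 and 1.15 (change 4.4), Fgf15 from 1.86 and 5.91 to 4.12 and 0.539 (change 4.55) and Miat from 2.5 and 2.28 to 24.3 and 1.82 (change 3.6). From day 2 to day 4 the alphaKO mean went up for all 5 genes, and the fullKO mean went down. Nsg2, a neuronal vesicle protein, and Pax6 changed by 4.14 and 3.96 from day 0. Slc1a3 was at 20.5 and 16 CPM at day 2 and at 153 and 27.9 at day 4 (change 2.1, adjusted p = 1.18e-17).

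Other genes moved the other way or lost their difference. Stmn4 was higher in alphaKO at day 2 (13.9 and 6.21 CPM) and lower at day 4 (change -2.99). Muscle and matrix genes had been higher in alphaKO at day 2 and were not called at day 4: Mybpc3, a sarcomere protein (change -2.41), Ankrd1, a stretch-responsive muscle gene (-2.34), and Postn, a matrix protein (-2.25). Ankrd1 was called lower at day 4 without alphaKO replicate 1 (-0.55, adjusted p = 0.0226). Postn was at 74.9 CPM in alphaKO and 6.98 in fullKO at day 0, at 3.47 and 0.8 at day 2 and at 6.66 and 7.32 at day 4. Filip1, an actin-binding protein, was higher in alphaKO at day 2 (1.28 and 0.558 CPM) and lower at day 4 (-1.18 ± 0.21, change -2.36). Tnfrsf11b, a decoy receptor, was at 5.09 CPM in alphaKO and 0.126 in fullKO at day 0 and at 0.185 and 0.203 at day 4 (change -5.43). For Dkk1, Foxf1, Lhx1 and Hoxb2 fullKO had 0 counts at day 0, so the change is given by its adjusted p only (4.45e-09, 2.72e-05, 0.000721 and 0.0072). At day 4 the Wnt antagonist gene Dkk1 was at 5.86, 5.32 and 6.17 against 8.46, 8.83 and 9.59 CPM (-0.63 ± 0.15), the mesoderm factor gene Foxf1 was lower by -0.84 ± 0.11 and the neural and kidney factor gene Lhx1 higher by 0.86 ± 0.14. Prdm6, a repressor of smooth muscle genes, had 0 counts in alphaKO at day 0 and was not called at day 4, at 6.01 and 5.4 CPM.

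**Figure D5:**
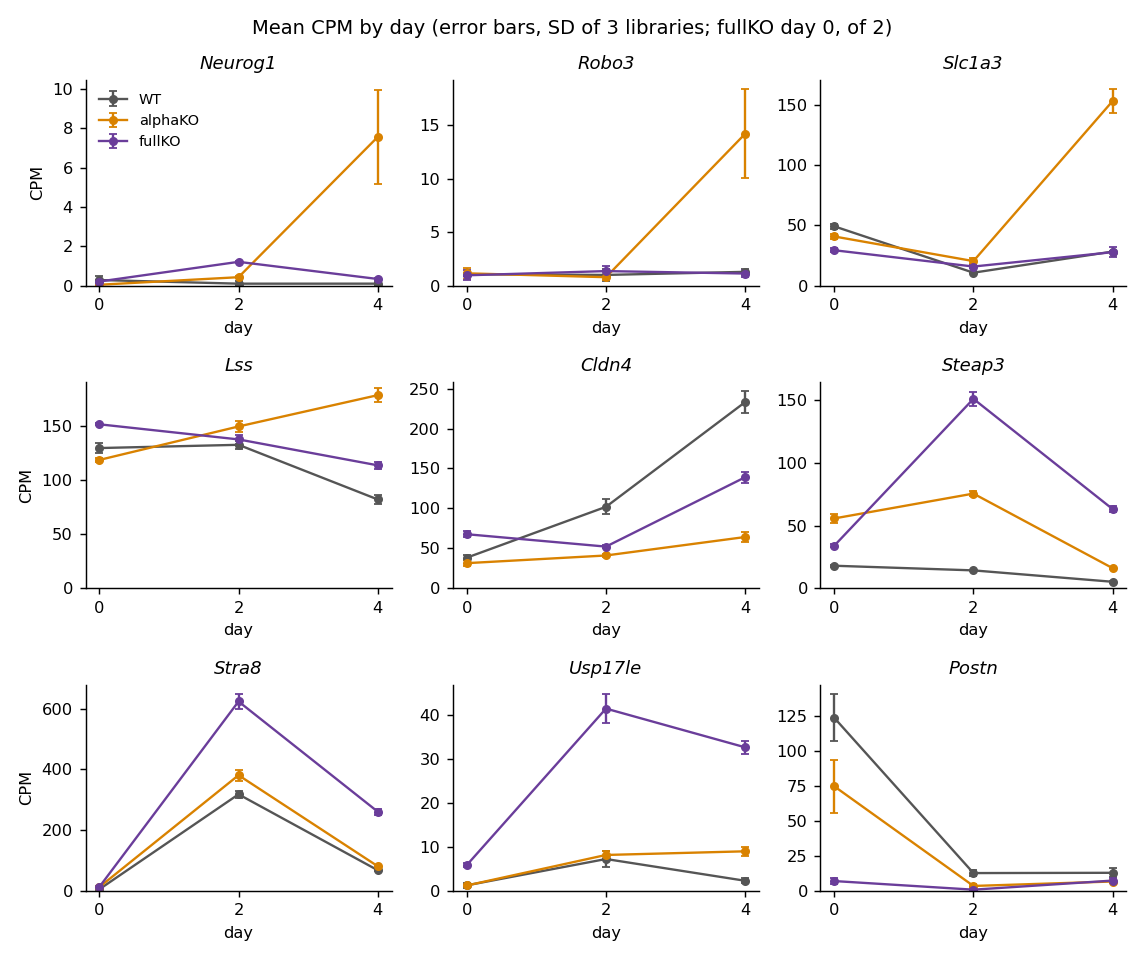
Mean CPM of 9 genes (y axes, linear from 0) on days 0, 2 and 4 (x axis) in WT, alphaKO and fullKO, with error bars of 1 SD over 3 libraries (2 for fullKO at day 0). Neurog1, Robo3 and Slc1a3 rise between day 2 and day 4 in alphaKO, Lss rises in alphaKO while it falls in fullKO, and Stra8 and Usp17le are highest in fullKO on days 2 and 4.

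Part of the difference followed chromosomes. Stretches of chromosome 1 stood apart from the rest of the genome in windows of 10 Mb with at least 10 genes at 10 CPM or more. Windows are named by the first megabase they hold, so that the window at 111 Mb opens with the 111th megabase. In that window the median log2 difference was -0.53 over 11 genes, and at 121 Mb it was -0.46 over 17. At 131 Mb it was 0.52 over 61 genes and at 151 Mb 0.42 over 36. At day 0 these medians were -0.56, -0.46, 0.38 and 0.58. Against WT, the window at 111 Mb was raised in both genotypes (0.94 in alphaKO and 1.45 in fullKO), as was that at 121 Mb (0.7 and 1.11). The windows from 1 to 91 Mb were raised in both as well, by 0.5 to 0.63 in alphaKO and 0.26 to 0.63 in fullKO. The window at 131 Mb was raised in alphaKO (0.59) with fullKO at 0.04. Over the whole chromosome the medians against WT were 0.5 in alphaKO and 0.34 in fullKO. Over chromosome 1 as a whole, 296 genes were higher and 152 lower of 1115, and over chromosome 14, 166 were higher and 78 lower of 615. Over all genes 17.4% were higher and 15.4% lower. For comparison, chromosome 15 had 154 higher and 115 lower of 709, and X had 130 and 101 of 622. The median difference was 0.1 on both chromosomes 1 and 14, and at day 0 it was 0.13 and 0.11. On chromosomes 15 and X the day 4 medians were 0.03 and 0.02. Steap3 (chr1:120190757-120272705), an endosomal metal reductase, lies in the chromosome 1 window at 121 Mb. It was at 15.8, 15.9 and 16.5 CPM in alphaKO, 62.1, 62 and 65.5 in fullKO and a mean of 5.22 in WT (-1.97 ± 0.07), but its day 0 difference had the other sign and changed by -2.69. With chromosomes 1, 14 and Y left out, 5354 genes were called, 2862 higher and 2492 lower. Whether copy number differs between the lines was not tested.

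Genes of the Y chromosome gave the largest falls. Ddx3y (chrY:1260771-1286629), an RNA helicase, was at 1.58, 1.04 and 1.54 CPM in alphaKO, at 35.9, 29.7 and 33.4 in fullKO and at 50.4 to 55.8 in WT (-4.58 ± 0.16, adjusted p = 1.19e-26). Eif2s3y, a translation factor, was at 0.063, 0.548 and 0.129 against 5.27, 5.32 and 6.82 CPM (-4.44 ± 0.32), and Uty, a histone demethylase relative, at 3.91, 4.22 and 5.08 against 36.1, 31.4 and 32 (-2.91 ± 0.11). Of 7 genes tested on the Y chromosome, 4 were called lower in alphaKO and 1 was called higher. Summed over the 5 tested genes of the Y-linked list, levels were 5.73 to 7.01 CPM in alphaKO, 67.2 to 78 in fullKO and 111 to 114 in WT. A low share of Y-bearing cells and a low level in each cell cannot be told apart in bulk RNA, and Ddx3y was already low in alphaKO at day 0, at 3.53 CPM against 17.4 in fullKO and 49.6 in WT.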

How the data were processed

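Stranded mRNA-seq libraries of KH2 cells were counted per gene. The authors deposited raw counts of 55471 genes in 26 libraries (13537267 to 20569706 counts each), made with FastQC, STAR 2.7.1a and mm10, per the submitters' processing notes. The sources used here do not name the counting tool, its strand setting or the annotation release. Of the genes, 55230 matched GENCODE M21, which gave symbols and GRCm38 positions.

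Counts were scaled by TMM, filtered with filterByExpr and fitted with edgeR 4.0.16 in R 4.3.3 (quasi-likelihood, 9 group means over all 26 libraries), with Benjamini-Hochberg adjustment over 18412 genes and a threshold of 0.05. CPM values use the scaled library sizes. Interactions contrasted the day 4 difference with that at day 0 or day 2. The script was tested on simulated data.

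Named genes were the NAP1 family, the 12 largest rises and falls at 5 CPM or more with libraries that do not overlap, up to 4 called and 2 uncalled members per list, and 5 interaction genes per direction and day. Predicted genes and pseudogenes were left out of these. Hox genes, sole exceptions in a list, Elavl3, Mapt, the adhesion genes called lower and a few list members beyond the rule were named after their values were seen. The comparison and its 53 lists were chosen with earlier results of these data known. DESeq2 1.42.0, RLE scaling, other filters, a test against a 1.2-fold change, a replicate block and the omission of libraries were tried as alternatives. Results on some genes are not reported here. Figures used matplotlib 3.10.9.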

Additional observations from a re-analysis of the deposited data

Results flagged for a closer look

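The alphaKO to fullKO difference was compared between days, because the same 2 genotypes were measured at day 0, day 2 and day 4. By the interaction term it differed between day 4 and day 0 for 5138 genes and between day 4 and day 2 for 3042.

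From day 0 to day 4, Nsg2 and Pax6 changed towards alphaKO by 4.14 and 3.96 on the log2 scale, and Tnfrsf11b changed the other way by -5.43. For the other genes with the largest changes a group had 3 counts or fewer, so the adjusted p from edgeR stands alone: it was 2.42e-05 for Neurog1, 0.00205 for Chrna3 and 0.0215 for Prdm6 among those that moved towards alphaKO. It was 4.45e-09 for Dkk1, 2.72e-05 for Foxf1, 0.000721 for Lhx1 and 0.0072 for Hoxb2 among those that moved towards fullKO.

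From day 2 to day 4, 4 neuronal genes and the growth factor gene Fgf15 led the changes towards alphaKO: Neurog1 by 5.86, Nhlh2 by 5.61, Fgf15 by 4.55, Robo3 by 4.4 and Miat by 3.6. For Fgf15 the log2 change of the group mean, with 0.1 CPM added, was 1.11 in alphaKO and -3.23 in fullKO. The changes towards fullKO were led by Stmn4 (-2.99), Mybpc3 (-2.41), Filip1 (-2.36), Ankrd1 (-2.34) and Postn (-2.25).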

How the results depend on the processing

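Among 325 named genes and 4179 pairs of gene and alternative, no gene called in either fit changed direction, and some genes not called in either did, such as Nes (-0.06 without alphaKO replicate 1). In 4082 pairs the gene kept its side of the threshold, 54 pairs (22 genes) lost the call, 47 of them with a library left out, and 43 pairs (26 genes) gained one. Against a 1.2-fold change, 2349 genes were called (1063 higher, 1286 lower) in place of 6026, since that test asks for more than a difference from 0. With a replicate block 5932 genes were called and 1115 were at least 2-fold apart. Same-numbered libraries did not deviate together (correlations -0.004, -0.003 and -0.028). Whether they were handled together is not known from the labels, and these correlations cannot show it. Leaving out 1 library gave 4959 to 5606 calls, 992 to 1173 at 2-fold or more, 3806 to 5011 for the change from day 0, 2545 to 3017 for the change from day 2, 8908 to 9222 for alphaKO against WT and 8342 to 8533 for fullKO against WT. Several list medians near 0 changed sign, among them formative and primed epiblast (0.06, but -0.22 outside chromosomes 1, 14 and Y), Wnt (-0.05, but 0.06 without fullKO replicate 2), neural progenitor (0.06, but -0.06 without alphaKO replicate 1) and mitochondrially encoded subunits (0.02, but -0.02 without fullKO replicate 2). Beyond the spread between replicates, the sign changed for replication-dependent histones (0.09, but 0 with no filter, and -0.04 to 0.13 with a library left out), cardiac muscle (-0.16, but 0.14 in a fit of the 6 libraries alone and 0.17 outside chromosomes 1, 14 and Y) and the hedgehog pathway (0.17, but -0.03 to 0.38 with a library left out). The cause was not tested. The numbers of libraries and a few counts per library limit what can be said of genes such as Neurod4.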
